A study of Homo sapiens with 4 samples.

Results

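The 41 genes described here encode the transporters and enzymes that carry glucose through glycolysis to lactate or acetyl-CoA, and the enzymes of the reverse route, gluconeogenesis. They were chosen by name from a list of glucose transporters, hexokinases, glycolytic enzymes and their isozymes, regulators of phosphofructokinase and pyruvate dehydrogenase, lactate transporters and gluconeogenic enzymes, and all 41 were found among the 58302 genes listed in each library. Their levels were measured by mRNA-seq in wild-type HepG2 cells, an established line from a human hepatocellular carcinoma, that were given either melatonin at 1 mM or DMSO for 24 h or 48 h. Each combination of treatment and time was 1 library, 4 in all, so no difference between conditions has a replicate check and none was tested. All 4 were grown in MEM with serum and sodium pyruvate.

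Glycolysis splits glucose into pyruvate in the cytosol and yields ATP without oxygen. Cells that make ATP this way reduce pyruvate to lactate and export it, a habit of many tumour cells that is also driven by the hypoxia-inducible factors. Gluconeogenesis runs in liver and kidney and shares the reversible enzymes, but bypasses the irreversible steps with pyruvate carboxylase, phosphoenolpyruvate carboxykinase, fructose bisphosphatase and glucose 6-phosphatase. Hepatocytes are known for both routes, and hepatoma cells usually swap adult liver isozymes for fetal or ubiquitous ones.

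Levels are given as FPKM, reads scaled by gene length and by library size, so that genes can be set side by side. Between 21616676 and 23086025 reads fell on genes in each library, and each FPKM has a 95% interval from its reads that covers counting error only. Mitochondrial genes took 19.96% and 16.6% of the reads in the DMSO and melatonin libraries of 24 h and 9.77% and 11.9% in those of 48 h, and the summed FPKM of all genes went from 479234 in DMSO 24 h to 337663 in DMSO 48 h. The hepatocyte marker ALB lay between 2717 and 3343 FPKM, whereas CD3E, COL1A2 and DCN were listed at 0 throughout. Of 9 such markers, TTR (50.6 and 256 FPKM) and AFP (1902 and 782 FPKM) differed by 2-fold in FPKM + 1 between DMSO and melatonin at 48 h and none did at 24 h. Of all genes with at least 1 FPKM in either library, 2.39% were higher and 3.32% lower with melatonin at 48 h, and 1.42% and 2.93% at 24 h. Of the 13 leukocyte, endothelial and fibroblast markers, 11 stayed under 1 FPKM, and the other two were PDGFRB at 0.774 to 4.33 and CD14 at 0.239 to 1.10 FPKM. Fewer cells of a type and less RNA per cell cannot be told apart in such libraries.

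Promoter sequences are shown for 5 members that stand for the patterns below and have a single transcription start in RefSeq: PGK1, GAPDH and PFKFB4 were highest in DMSO 24 h, whereas SLC2A1 and G6PC were highest in melatonin 48 h. Each line holds the 250 bases before the start on build GRCh38.p14, 5′ to 3′ on the strand of the gene, and capitals mark ACGTG and GCGTG, core letters of sites bound by hypoxia-inducible factors, read on either strand.
PGK1 (chrX:78103998-78104247, plus strand): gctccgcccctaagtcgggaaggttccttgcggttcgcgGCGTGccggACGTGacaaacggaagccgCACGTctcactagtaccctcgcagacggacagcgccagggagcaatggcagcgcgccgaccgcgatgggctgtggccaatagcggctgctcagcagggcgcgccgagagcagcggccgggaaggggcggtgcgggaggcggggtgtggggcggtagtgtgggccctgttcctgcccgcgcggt
GAPDH (chr12:6535014-6535263, plus strand): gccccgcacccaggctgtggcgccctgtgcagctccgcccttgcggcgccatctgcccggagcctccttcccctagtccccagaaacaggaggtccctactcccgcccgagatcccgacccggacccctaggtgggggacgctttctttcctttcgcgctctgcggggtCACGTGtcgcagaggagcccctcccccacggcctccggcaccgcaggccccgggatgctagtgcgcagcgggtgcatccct
PFKFB4 (chr3:48556804-48557053, minus strand): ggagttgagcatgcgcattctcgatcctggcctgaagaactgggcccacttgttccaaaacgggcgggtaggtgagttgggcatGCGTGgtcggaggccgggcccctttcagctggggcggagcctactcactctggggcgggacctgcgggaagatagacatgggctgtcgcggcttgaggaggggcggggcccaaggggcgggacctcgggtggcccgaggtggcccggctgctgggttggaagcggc
SLC2A1 (chr1:42958869-42959118, minus strand): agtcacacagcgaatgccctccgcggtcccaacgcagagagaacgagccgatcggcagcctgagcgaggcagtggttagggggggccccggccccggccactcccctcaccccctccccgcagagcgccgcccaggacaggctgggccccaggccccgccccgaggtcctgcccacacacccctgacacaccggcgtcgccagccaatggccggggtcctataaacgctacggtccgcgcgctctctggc
G6PC (chr17:42900549-42900798, plus strand): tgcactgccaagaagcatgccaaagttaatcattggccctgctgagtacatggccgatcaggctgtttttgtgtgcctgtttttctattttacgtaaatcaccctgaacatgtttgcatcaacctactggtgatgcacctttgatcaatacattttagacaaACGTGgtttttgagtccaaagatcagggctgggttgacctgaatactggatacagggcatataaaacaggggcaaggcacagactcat
PGK1 held ACGTG 202 and 183 bases and GCGTG 211 bases before the start. GAPDH held 1 CACGTG, in which ACGTG is read from both strands. PFKFB4 held 1 GCGTG at 166 bases, G6PC 1 ACGTG at 88 bases, and SLC2A1 neither in these 250 bases. With the 50 bases after the start included, SLC2A1 held 1 GCGTG and PGK1 3 ACGTG. Over windows of 300 bases, from 250 before to 50 after each start, 37 of the 41 members had 73 windows, of which 25 (34.2%) held ACGTG, against 21.4% of all 35116 windows in the table. GCGTG was in 38.4% of the members' windows and 36.5% of all, and CACGTG, which contains ACGTG, in 12.3% and 7.26%. These matches are letters in a window, and binding was not measured.

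Of the 41 members, 36 reached 1 FPKM in at least 1 library. HK1, PFKM, LDHB, PDK4 and FBP1 stayed under 1 FPKM in every library and entered no count of changed genes. The members took 1.77% of non-mitochondrial reads in DMSO 24 h, 1.31% in melatonin 24 h, 0.870% in DMSO 48 h and 0.954% in melatonin 48 h. DMSO 24 h held the highest level of 26 of the 36, against 22.2% of all genes, and melatonin 48 h the lowest level of 21, against 22.1%. An order with both 24 h libraries above both 48 h libraries, and DMSO above melatonin at each time, was found for 16 of the 36, against 6.05% of all genes and 6.85% of protein-coding genes at 1 FPKM or more in any library. These 16 were SLC2A3, HK2, HKDC1, GPI, PFKP, ALDOA, TPI1, GAPDH, PGK1, PGAM1, ENO1, PKM, PKLR, LDHA, PDK1 and SLC16A3. SLC2A1 and PFKL, the most abundant transcripts of glucose entry and of phosphofructokinase-1, were not among them. With every library rescaled to the same FPKM sum (TPM), the order held for 14 of 36, against 1.21% of all genes, and DMSO 24 h was highest for 17, against 6.82%.

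**Figure D1:**
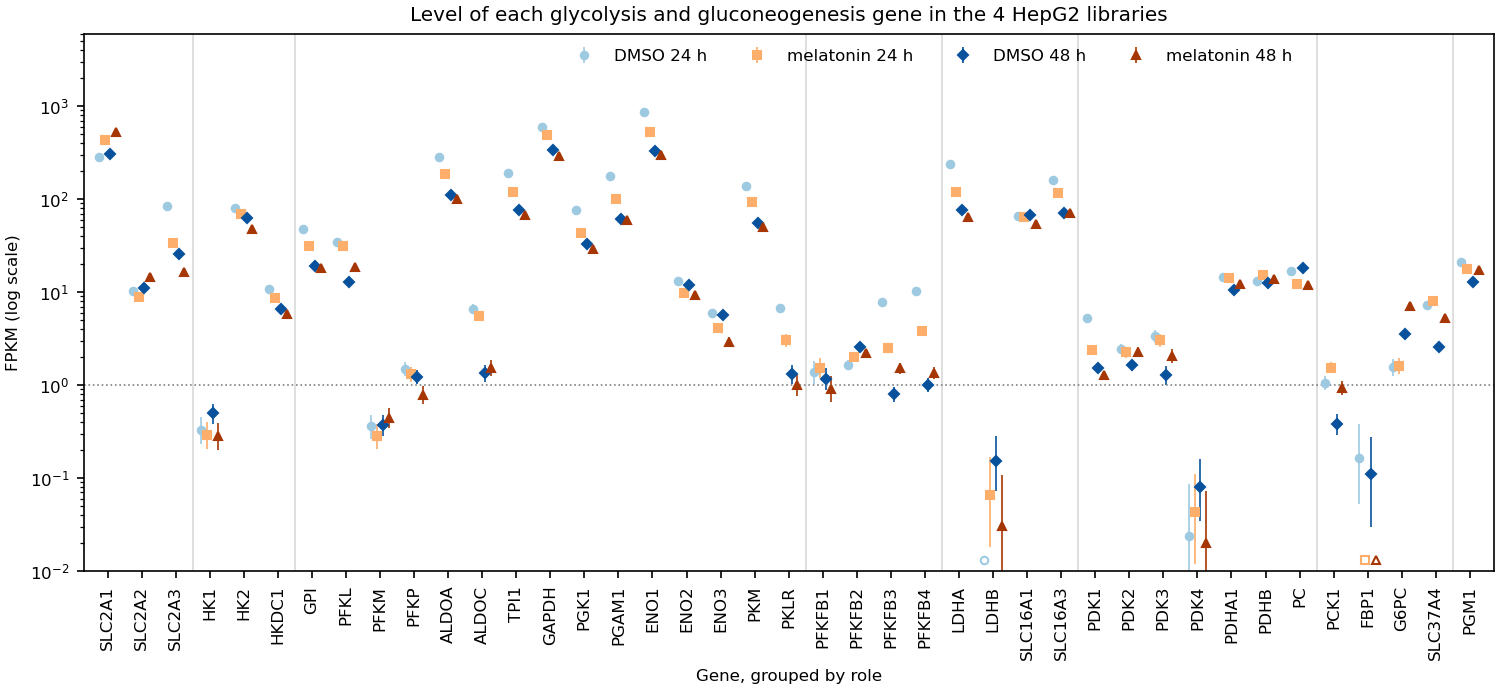
FPKM (log axis) of the 41 genes in each of the 4 libraries, grouped by role, with 95% counting intervals and open symbols at the bottom for genes listed at 0. Most glycolytic enzymes step down from DMSO 24 h (pale blue) to melatonin 48 h (dark red), while SLC2A1 and G6PC are highest in melatonin 48 h.

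Glucose enters the cell through the SLC2A carriers. SLC2A1, which encodes the ubiquitous carrier GLUT1, was at 284 FPKM in DMSO 24 h, 437 in melatonin 24 h, 305 in DMSO 48 h and 524 in melatonin 48 h. It was the most abundant member in melatonin 48 h and stood higher with melatonin at both times, with an FPKM ratio of 1.54 (95% interval 1.51 to 1.56) at 24 h and 1.72 (1.69 to 1.74) at 48 h. SLC2A3, which encodes the high-affinity carrier GLUT3, was at 83.8, 33.3, 25.9 and 16.6 FPKM in the same order of libraries. It went the opposite way, with melatonin over DMSO ratios of 0.398 (0.383 to 0.412) at 24 h and 0.643 (0.610 to 0.678) at 48 h. SLC2A14, a near-identical copy of SLC2A3 that may share its reads, lay between 1.10 and 3.16 FPKM and was lower with melatonin at both times. SLC2A2, which encodes the liver carrier GLUT2, was at 10.3, 8.77, 11.1 and 14.7 FPKM.

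As a share of the summed FPKM of these 3 carriers, SLC2A1 made up 75.1% in DMSO 24 h and 91.2% in melatonin 24 h, then 89.2% in DMSO 48 h and 94.4% in melatonin 48 h. SLC2A3 made up 22.1%, 6.95%, 7.57% and 2.998%. The liver carrier held no more than 3.26% in any library.

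The hexokinases trap glucose as glucose 6-phosphate. HK2, the isozyme typical of tumours, was at 79.4 FPKM in DMSO 24 h, 69.8 in melatonin 24 h, 62.2 in DMSO 48 h and 47.6 in melatonin 48 h. It took 87.7% to 89.8% of the summed FPKM of HK1, HK2, HKDC1 and HK3, and was lower with melatonin by ratios of 0.878 (0.853 to 0.905) and 0.765 (0.740 to 0.790). HKDC1, a related hexokinase domain protein, lay between 5.88 and 10.8 FPKM in the same order of libraries. HK1 stayed between 0.282 and 0.496 FPKM.

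Between glucose 6-phosphate and lactate, each step had 1 leading isozyme: GPI, PFKL, ALDOA, TPI1, GAPDH, PGK1, PGAM1, ENO1, PKM and LDHA. Their summed FPKM was 2645 in DMSO 24 h, 1739 in melatonin 24 h, 1106 in DMSO 48 h and 995 in melatonin 48 h. Melatonin 24 h therefore held 0.657 of the DMSO 24 h sum, whereas both 48 h libraries were lower still, at 0.418 and 0.376. On the TPM scale the sums were 5519, 4095, 3277 and 2838, in the same order, and as ratios the times lay closer together. On deposited FPKM the gap between melatonin and DMSO was wider at 24 h than at 48 h.

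ENO1, the enolase that makes phosphoenolpyruvate, had the highest mean level of the 41 members, at 868, 529, 327 and 296 FPKM in the same order of libraries. GAPDH, which oxidizes glyceraldehyde 3-phosphate, was at 593, 485, 336 and 292 FPKM. ALDOA, the aldolase that splits fructose bisphosphate, was at 286, 188, 109 and 100 FPKM. These transcripts share the order of libraries, and their counting intervals do not overlap between any 2 libraries. Of the annotated exon bases of ALDOA, 54.2% overlap another gene, and 17.6% of those of GAPDH do, so part of their reads may belong to those neighbours.

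LDHA, the lactate dehydrogenase that reduces pyruvate, was at 237, 119, 76.9 and 64.5 FPKM. TPI1, which interconverts the triose phosphates, was at 190, 120, 76.0 and 68.3 FPKM. PGAM1, the phosphoglycerate mutase, was at 177, 100 and 60.5 FPKM in the first 3 libraries and at 59.0 in melatonin 48 h. All were far lower in DMSO 48 h than in DMSO 24 h. LDHA had the lowest melatonin over DMSO ratio of the leading isozymes at 24 h, 0.503 (0.493 to 0.513), and PGAM1 a ratio of 0.975 (0.930 to 1.02) at 48 h, which includes 1.

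PKM, the pyruvate kinase of most tissues and tumours, was at 138, 92.2, 55.3 and 49.7 FPKM. PGK1, the ATP-yielding phosphoglycerate kinase, was at 75.5, 43.3, 33.1 and 28.9 FPKM, and GPI, which converts glucose 6-phosphate to fructose 6-phosphate, was at 47.3, 31.0, 18.9 and 18.1 FPKM. They kept the same order. PFKL, the liver isozyme of the committed phosphofructokinase step, did not: it was at 35.0, 31.6, 12.8 and 18.7 FPKM, lowest in DMSO 48 h, with a ratio of 1.46 (1.39 to 1.54) for melatonin over DMSO at 48 h.

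The minor isozymes were mixed. PKLR, the pyruvate kinase of adult liver, was at 6.70 FPKM in DMSO 24 h, 3.05 in melatonin 24 h, 1.31 in DMSO 48 h and 0.998 in melatonin 48 h, and its share of the pyruvate kinase transcripts went from 4.64% to 1.97%. ALDOC, the aldolase known from brain, was at 6.66 and 5.56 FPKM at 24 h and at 1.34 and 1.54 FPKM at 48 h, so it divided by time rather than by treatment. ENO3, the muscle enolase, did the reverse, with 5.93 and 5.64 FPKM in the DMSO libraries and 4.07 and 2.93 with melatonin. ENO2, the neuronal enolase, lay between 9.23 and 13.2 FPKM and was also lower with melatonin at both times. PFKP, the platelet phosphofructokinase, lay between 0.782 and 1.49 FPKM.

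The bifunctional PFKFB enzymes set the level of fructose 2,6-bisphosphate, the activator of phosphofructokinase. PFKFB4 was at 10.3 FPKM in DMSO 24 h, 3.80 in melatonin 24 h, 1.01 in DMSO 48 h and 1.35 in melatonin 48 h. PFKFB3, the isozyme with the strongest kinase bias, was at 7.80, 2.52, 0.798 and 1.51 FPKM. Both were highest in DMSO 24 h and lowest in DMSO 48 h, a ratio of 0.0979 (0.0813 to 0.117) for PFKFB4 and 0.102 (0.0830 to 0.125) for PFKFB3 between these libraries, and these were the largest differences among the members that reached 1 FPKM. Melatonin over DMSO, PFKFB3 had a ratio of 0.324 (0.284 to 0.369) at 24 h and of 1.89 (1.49 to 2.41) at 48 h, and PFKFB4 ratios of 0.369 (0.331 to 0.412) and 1.34 (1.07 to 1.68).

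PFKFB2, the heart isozyme, was at 1.65, 2.02, 2.57 and 2.20 FPKM and PFKFB1, the liver isozyme, between 0.919 and 1.53 FPKM. The makeup of the family therefore differed between times: PFKFB4 had the largest share of the summed FPKM in both 24 h libraries, with 48.7% in DMSO and 38.5% in melatonin, and PFKFB2 in both 48 h libraries, with 46.3% and 36.8%. PFKFB3 took 36.9% and 14.4% in the DMSO libraries of 24 h and 48 h, and 25.6% and 25.2% in those with melatonin.

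**Figure D2:**
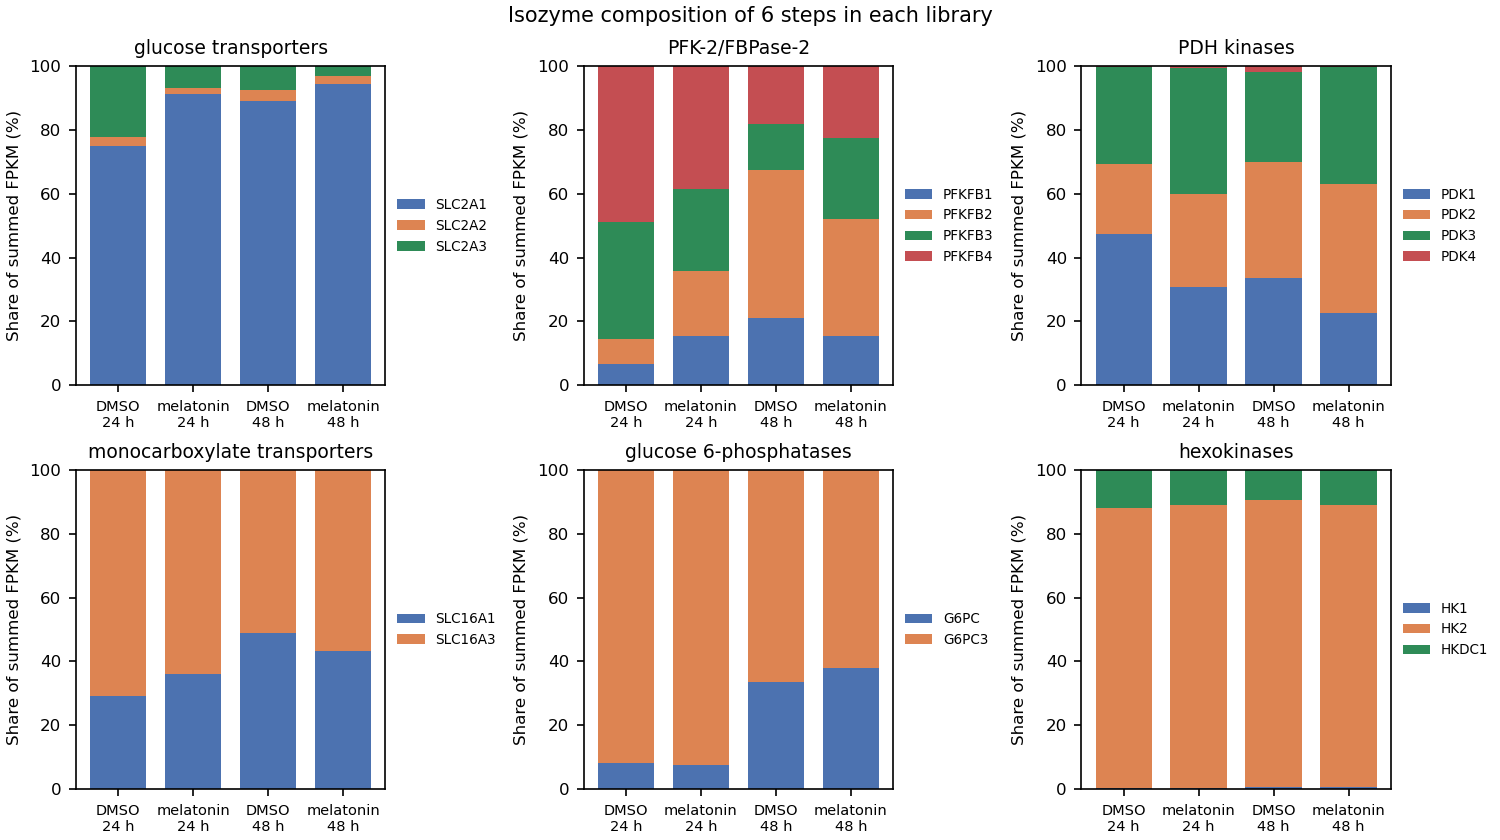
Share of the summed FPKM (percent) that each isozyme took within 6 steps in each library. SLC2A3, PFKFB4 and PDK1 hold their largest shares in DMSO 24 h, G6PC its largest share in melatonin 48 h, and HK2 between 87.7% and 89.8% throughout.

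At the end of the pathway, pyruvate either becomes lactate or enters the mitochondrion. LDHA made up nearly all lactate dehydrogenase transcript, since LDHB, the isozyme that favours lactate oxidation, had 0 reads in DMSO 24 h, which allows up to 0.0548 FPKM at 3 reads, and 4, 10 and 2 reads in the others. SLC16A3, which encodes the lactate exporter MCT4, was at 160, 115, 71.0 and 70.5 FPKM. SLC16A1, which encodes MCT1, was steadier, at 65.3, 64.9, 68.0 and 53.9 FPKM. SLC16A3 thus made up 71.0% of their sum in DMSO 24 h, 63.9% in melatonin 24 h, 51.1% in DMSO 48 h and 56.7% in melatonin 48 h.

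The PDK kinases switch off pyruvate dehydrogenase. PDK1 was at 5.22, 2.38, 1.53 and 1.27 FPKM in the 4 libraries, the same order as the glycolytic enzymes, and its share of the PDK transcripts went from 47.4% in DMSO 24 h to 22.5% in melatonin 48 h. PDK2 lay between 1.64 and 2.43 FPKM and PDK3 between 1.29 and 3.34 FPKM, and PDK4 had at most 8 reads. Of the exon bases of PDK2, 38.6% overlap SAMD14 on the opposite strand, and for PDK3 the deposited length of 2695 bp is far under the 17456 exon bases of the annotation, so the levels of both are uncertain. The subunits of the enzyme itself were level by comparison: PDHA1 lay between 10.6 and 14.6 FPKM and PDHB between 12.6 and 15.1 FPKM.

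The gluconeogenic members differed among themselves over time: G6PC was higher at 48 h than at 24 h, whereas SLC37A4 was lower, with ratios of 0.346 with DMSO and 0.665 with melatonin, and so was PCK1, with ratios of 0.359 and 0.608. G6PC, the catalytic subunit of liver glucose 6-phosphatase, was at 1.55 FPKM in DMSO 24 h, 1.62 in melatonin 24 h, 3.58 in DMSO 48 h and 7.11 in melatonin 48 h. It was higher at 48 h than at 24 h in both treatments, by ratios of 2.31 (1.81 to 2.95) with DMSO and 4.40 (3.57 to 5.46) with melatonin, and its melatonin over DMSO ratio was 1.04 (0.781 to 1.39) at 24 h and 1.98 (1.71 to 2.31) at 48 h. SLC37A4, which carries glucose 6-phosphate to that enzyme, was at 7.34, 7.93, 2.54 and 5.27 FPKM, a melatonin over DMSO ratio of 2.07 (1.82 to 2.36) at 48 h. Together with the ubiquitous G6PC3, which was at 17.4, 19.9, 7.11 and 11.6 FPKM, G6PC made up 8.20%, 7.50%, 33.5% and 37.9% of glucose 6-phosphatase transcript.

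PCK1, the cytosolic phosphoenolpyruvate carboxykinase, was scarce, at 1.06, 1.53, 0.381 and 0.931 FPKM, and was higher with melatonin at both times, with ratios of 1.44 (1.16 to 1.81) and 2.44 (1.78 to 3.38). At 48 h it was under 1 FPKM in both libraries and so was not counted. The mitochondrial PCK2 took 98.9% to 99.3% of the step, at 91.5, 143, 55.7 and 85.5 FPKM. PC, which makes oxaloacetate from pyruvate, was lower with melatonin, at 16.7 and 18.4 FPKM with DMSO and 12.1 and 11.9 FPKM with melatonin. FBP1, the fructose bisphosphatase of liver, had 5 reads in DMSO 24 h, 4 in DMSO 48 h and 0 in both melatonin libraries, where 3 reads would be 0.0887 and 0.0810 FPKM. The interval of its melatonin over DMSO ratio ended at 0.988 at 24 h and at 1.496 at 48 h. With so few reads, no difference in FBP1 is read from either time at this depth. PGM1, which links glucose 6-phosphate to glycogen, was at 21.0, 17.9, 12.8 and 17.1 FPKM.

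For counts over many genes, the log2 fold change of FPKM + 1 was used, a gene was compared where it had at least 1 FPKM in either library, and 2-fold marked a changed gene. Melatonin against DMSO at 24 h left 36 members to compare. None was higher by 2-fold, and SLC2A3, PFKFB3 and PFKFB4 were lower, with log2 fold changes of -1.30, -1.32 and -1.23. PKLR and PDK1, at FPKM ratios of 0.455 and 0.457, fell short once 1 was added to FPKM, at -0.93 and -0.88. Over all genes compared, 1.42% were higher and 2.93% lower, and over protein-coding genes 0.191% and 0.439%. At 1.5-fold, SLC2A1 was higher and 12 members were lower (SLC2A3, GPI, PFKFB3, PFKFB4, ALDOA, TPI1, PGK1, PGAM1, ENO1, PKLR, LDHA and PDK1), against 4.02% higher and 7.53% lower of all genes. The median of the members was -0.29 and that of all genes 0.02. Below 0 were 29 of the 36, against 46.5% of all genes and 42.1% of protein-coding genes. PFKL, PDK2, PDK3, PDHA1 and SLC16A1 changed sign under another scaling, and the other 31 kept theirs under each of the scalings tried.

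At 48 h, 35 members were compared and none passed 2-fold, while 2.39% of all genes were higher and 3.32% lower, and 1.03% and 1.36% of protein-coding genes. SLC37A4, at an FPKM ratio of 2.07, fell short once 1 was added to FPKM, at 0.82. At 1.5-fold, SLC2A1, G6PC and SLC37A4 were higher and SLC2A3 and ENO3 lower, against 8.62% higher and 10.0% lower of all genes. The median was -0.14, beside -0.02 for all genes. Below 0 were 22 of the 35, against 52.5% of all genes and 51.0% of protein-coding genes. GPI, PGAM1 and SLC16A3 lay close enough to 0 to change sign with the scaling. Lower with melatonin at both times were 20 of 35 members, which compares with 32.0% of all genes and 30.1% of protein-coding genes (19 members and 21.0% of all genes as TPM), and higher at both times were SLC2A1, PDHB, G6PC and SLC37A4. A further 9, SLC2A2, PFKL, PFKFB3, PFKFB4, ALDOC, PDK2, PDK3, PDHA1 and PGM1, were lower at 24 h and higher at 48 h. Of these, PFKL, PDK2, PDK3 and PDHA1 changed sign at 24 h on the TPM scale, so their turn depends on the scaling. No share over all genes was counted for these 9 or for the 4 higher at both times.

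**Figure D3:**
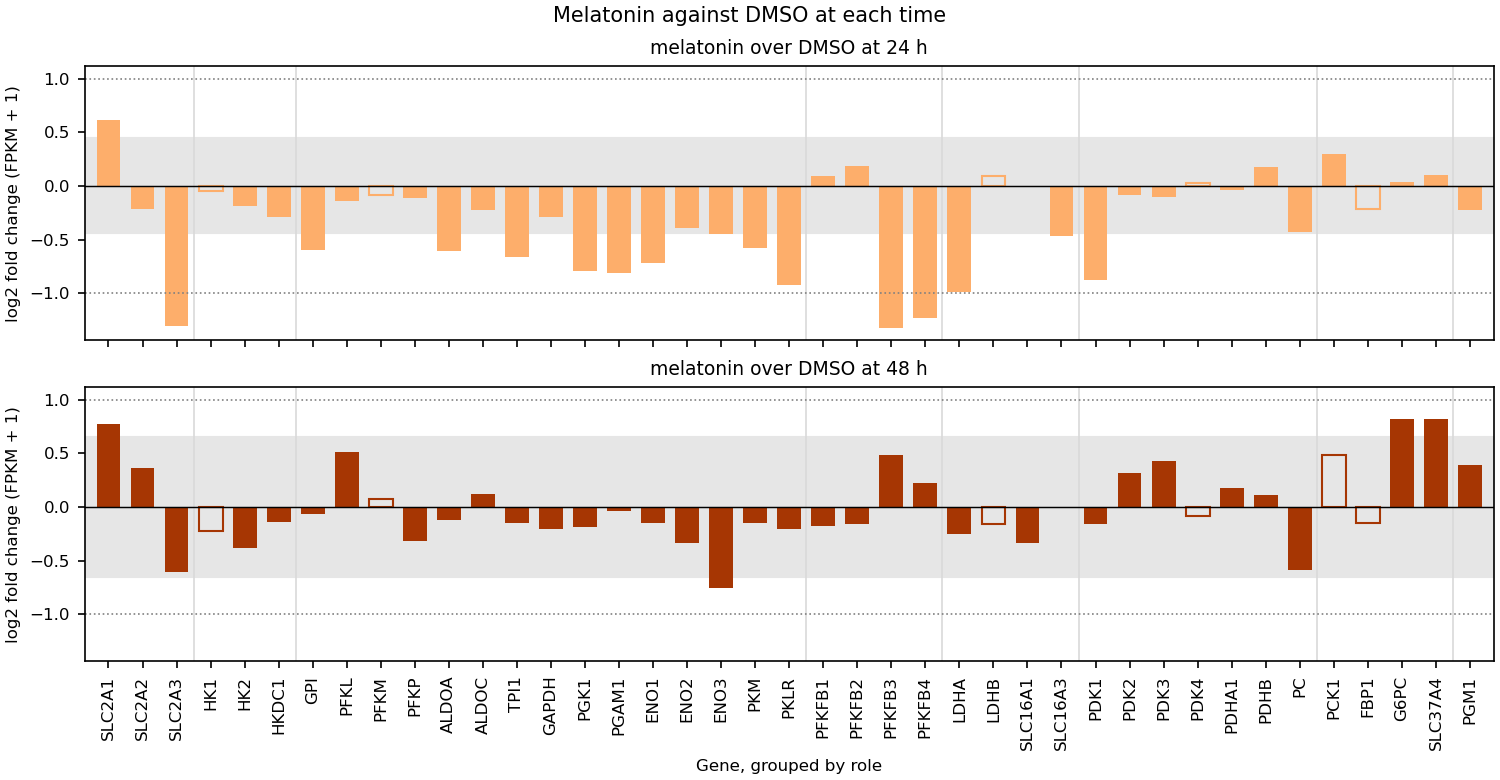
Log2 fold change of FPKM + 1, melatonin over DMSO, at 24 h (top) and 48 h (bottom) for each gene, with open bars for genes under 1 FPKM in both libraries, dotted lines at 2-fold and a grey band that holds the middle 90% of protein-coding genes. Of the glycolytic enzymes compared, 14 of 14 lie below 0 at 24 h and 12 of 14 at 48 h, against 46.5% and 52.5% of all genes. The band is wider at 48 h (-0.65 to 0.65) than at 24 h (-0.44 to 0.44).

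The largest count of changed members lay between the control libraries. From DMSO 24 h to DMSO 48 h, 17 of 36 members were lower by 2-fold and none higher, against 4.24% lower and 3.50% higher of all genes, and 2.78% and 1.65% of protein-coding genes. The 17 were SLC2A3, GPI, PFKL, PFKFB3, PFKFB4, ALDOA, ALDOC, TPI1, PGK1, PGAM1, ENO1, PKM, PKLR, LDHA, PDK1, SLC16A3 and SLC37A4. On deposited FPKM, GAPDH, at -0.82, was thus the only leading isozyme between GPI and LDHA that did not pass. The largest log2 fold changes of the 17 were -2.49 for PFKFB4 and -2.29 for PFKFB3, and LDHA was at -1.61 and PGAM1 at -1.53. By FPKM ratio, PDK3 (0.386) and PCK1 (0.359) were also lower by 2-fold and G6PC (2.31) higher, and all fell short once 1 was added to FPKM. The median of the members was -0.87, beside 0.00 for all genes. This count rests on the scaling of the libraries: on the TPM scale the median of all genes moved to 0.46, 8 members were lower by 2-fold and 1 higher, against 3.91% lower and 16.4% higher of all genes, and the members' median stayed 0.91 under that of all genes. Of the leading isozymes, only LDHA and PGAM1 stayed past 2-fold under each scaling tried, with -1.12 and -1.04 as their smallest changes. The others did not, with PFKL reaching -0.93 and ENO1 -0.90. HK2, PFKP, PFKFB1, ENO2, ENO3, PDHA1 and PDHB changed sign under another scaling.

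From melatonin 24 h to melatonin 48 h, fewer members passed 2-fold. PFKFB4, ALDOC and PKLR were lower by 2-fold, at -1.03, -1.37 and -1.02, and G6PC was higher, at 1.63, of 36 members, against 1.71% lower and 2.45% higher of all genes and 0.429% and 0.496% of protein-coding genes. The median of the members was -0.50 and that of all genes -0.04. All 10 leading isozymes were lower at 48 h, as were 54.9% of all genes and 59.8% of protein-coding genes. The median of these 10 was -0.78, and in DMSO it was -1.34. ENO2, PDHA1, PDHB, PC, SLC16A1 and PGM1 changed sign under another scaling. The 4 comparisons share libraries, so their values are set side by side and not correlated. The state of the DMSO 24 h library enters the comparisons with DMSO 48 h and with melatonin 24 h alike, and its part in either result was not tested.

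**Figure D4:**
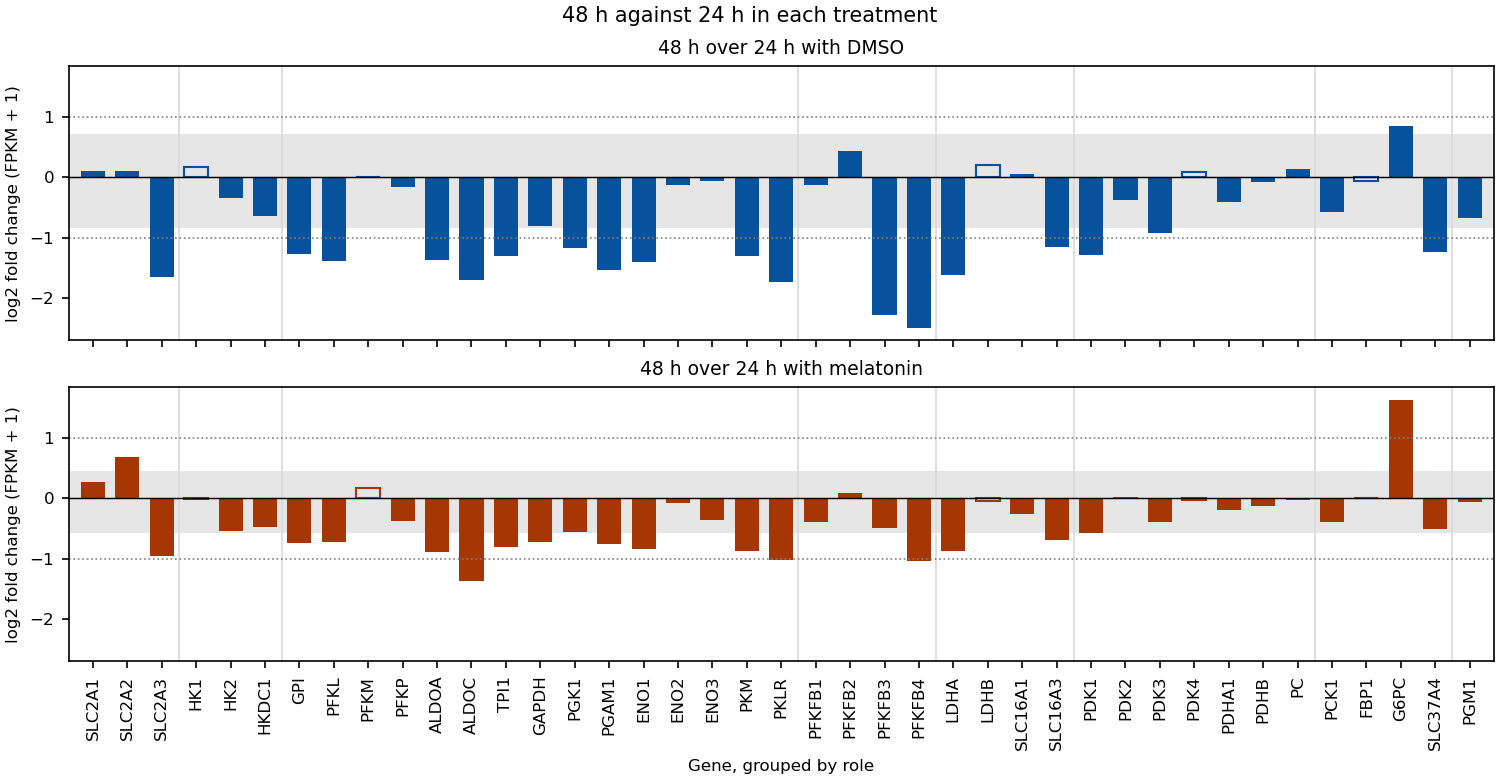
Log2 fold change of FPKM + 1, 48 h over 24 h, in DMSO (top) and in melatonin (bottom) for each gene, with open bars for genes under 1 FPKM in both libraries, dotted lines at 2-fold and a grey band that holds the middle 90% of protein-coding genes. The bars of the 10 leading isozymes from GPI to LDHA lie lower in DMSO than in melatonin, GAPDH by the least (-0.82 and -0.73), and G6PC stands above 0 in both.

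GAPDH has a second use, since it was the reference gene of the RT-qPCR assays in the study. It was compared with 11 other common reference genes: ACTB, B2M, GUSB, HPRT1, PPIA, RPL13A, RPLP0, SDHA, TBP, TFRC and YWHAZ. For melatonin over DMSO, GAPDH had log2 fold changes of -0.29 at 24 h and -0.20 at 48 h, and TFRC alone was lower. Between 24 h and 48 h it was the lowest of the 12 in both treatments, at -0.82 with DMSO and -0.73 with melatonin, where the medians of the other 11 were -0.04 and -0.06. Division by GAPDH would raise a fold change by 1.22 and 1.15 times for melatonin over DMSO at 24 h and 48 h, and by 1.76 and 1.66 times for 48 h over 24 h with DMSO and with melatonin. On deposited FPKM, PPIA stayed within 0.07 of 0 in all 4 comparisons. These values and factors depend on the scaling of the libraries. Across the scalings tried, GAPDH lay between -0.83 and -0.31 for 48 h over 24 h with DMSO. With melatonin it lay between -0.73 and -0.46.

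**Figure D5:**
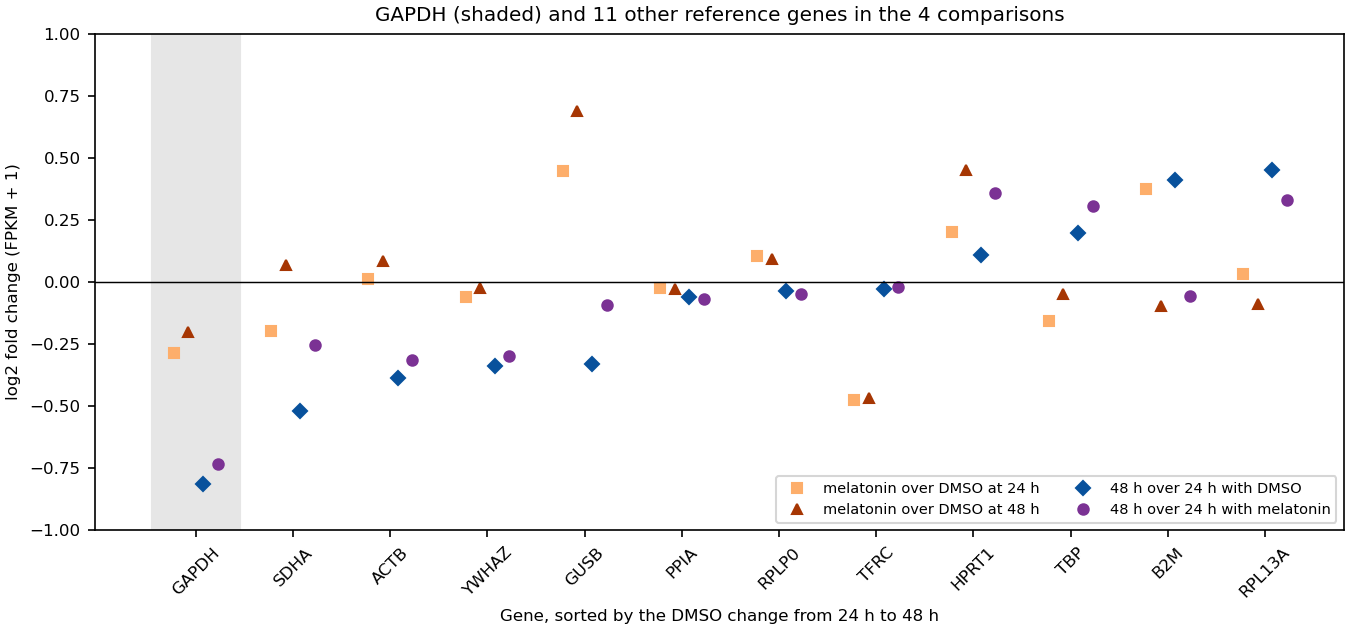
Log2 fold change of FPKM + 1 of GAPDH (shaded) and 11 other reference genes in the 4 comparisons, sorted by the change from 24 h to 48 h with DMSO. GAPDH lies lowest of the 12 for both changes over time, at -0.82 and -0.73.

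Genes around the pathway were counted from lists of their own. Of 30 other glycolysis and gluconeogenesis genes, 19 were compared in each comparison. None passed 2-fold with melatonin at 24 h, against 1.42% higher and 2.93% lower of all genes. LDHD alone, a D-lactate dehydrogenase, passed at 48 h (1.84 FPKM with DMSO, 6.68 with melatonin, log2 fold change 1.44), against 2.39% and 3.32%. At 24 h LDHD was at 3.19 and 7.34 FPKM, a ratio of 2.30 (1.89 to 2.82). It fell short there, at 0.99, only because 1 was added to FPKM. The median of the 19 was -0.01 at 24 h and 0.25 at 48 h. The most abundant were BSG, the chaperone of the lactate transporters, at 207 to 253 FPKM, and PCK2. With DMSO over time, 3 of the 19 (G6PC3, PGP and SLC2A6) were lower by 2-fold and none higher, against 4.24% and 3.50% of all genes. The pentose phosphate pathway branches off at glucose 6-phosphate, and its genes are given here by level alone. PGD, a dehydrogenase of that pathway, was at 74.6 FPKM in DMSO 24 h, 102 in melatonin 24 h, 48.1 in DMSO 48 h and 84.4 in melatonin 48 h, and TKT, a transketolase, between 50.8 and 55.2 FPKM.

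Of the 20 genes of the citric acid cycle, OGDH alone passed 2-fold with melatonin, at 48 h (7.24 and 15.8 FPKM, log2 fold change 1.03). Below 0 at 24 h were 6 of the 20, against 46.5% of all genes and 42.1% of protein-coding genes. At 48 h, 4 of the 20 were below 0, against 52.5% and 51.0%. IDH1, at 40.9 to 95.04 FPKM, and MDH2, at 35.7 to 39.5 FPKM, were the most abundant. None of 9 pyruvate dehydrogenase and pyruvate carrier genes passed 2-fold in any comparison, with GPT2 at 62.4 to 86.4 and MPC1 at 15.2 to 18.0 FPKM. None of the glycogen genes compared, 16 at 24 h and 15 at 48 h, passed 2-fold with melatonin, with PYGB at 48.5 to 58.5 and PYGL at 14.5 to 21.7 FPKM. Of 22 regulators, SIK1, a kinase that restrains gluconeogenic transcription, was lower with melatonin at 48 h (4.29 and 0.968 FPKM, log2 fold change -1.43), and none passed 2-fold at 24 h. Over all genes compared, 1.42% were higher and 2.93% lower by 2-fold with melatonin at 24 h, and 2.39% and 3.32% at 48 h. The 2-fold counts with melatonin therefore do not set these lists apart from all genes. For 48 h over 24 h with melatonin, 2.45% of all genes were higher and 1.71% lower. The most abundant regulators were CEBPB at 54.8 to 100.4 FPKM and MYC at 60.8 to 91.0 FPKM. With DMSO over time, 1 of 20 genes of the cycle (IDH2) and 2 of 16 glycogen genes (GYS1 and GBE1) were lower by 2-fold. Of all genes, 4.24% were lower. Higher by 2-fold were 2 of 22 regulators (PPARGC1A and KLF15), against 3.50% of all genes. IDH2, GYS1, GBE1, PPARGC1A, KLF15 and HIF1A were named after their values were seen. HIF1A, the hypoxia-inducible factor subunit, was at 28.2, 27.8, 28.4 and 21.4 FPKM.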

How the data were processed

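HepG2 mRNA was polyadenylate-selected and sequenced as paired ends. By the methods of the study, the authors mapped reads to hg38 with MapSplice and took expression from Cufflinks, while the submitters' processing notes name Bowtie2 2.0.6, TopHat2 2.0.9, Cufflinks 2.1.1 and Cuffdiff 2.1.1. The authors deposited FPKM per Ensembl gene together with a gene length, and no read counts. Multiplied by length, FPKM came in whole steps (within 0.02 of a step) for 100% of values above 0 in each library, so reads per gene were recovered and used for exact Poisson intervals of FPKM and exact intervals of FPKM ratios (95%). The library size implied by the step was 1.05 to 1.10 times the reads on genes other than mitochondrial ones. Depth was 21616676 to 23086025 reads on genes per library, and where a ratio lies close to 1 its counting interval can include 1 even for members above 5 FPKM. Whether counting used strand is not given in the sources used here. Of the members, 27 overlap exons of another gene in GENCODE 44, and 105 pseudogenes are named after 12 members, with at most 1.76% of the reads of their parent gene (TPI1).

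Each of the 4 groups was 1 library, so there is no p-value. Log2 fold changes used a pseudocount of 1 among genes with at least 1 FPKM in either library, which understates the change of low genes. The members, gene lists and promoters were chosen with earlier results of these data known. Every member was named, and of each other list those past 2-fold with melatonin and the 2 most abundant, except that some genes of the lists are not reported here and were left out of list counts, isozyme shares and reference genes. Alternatives were a pseudocount of 0.1, no filter, at least 5 FPKM, a 1.5-fold threshold, TPM, centring on the median, a library size without mitochondrial genes, protein-coding genes alone, pseudogene reads added to shares, and division by other reference genes. A minimum of 50 reads, a library size as the sum of reads, and TPM for the order of libraries were added after seeing the data. Scripts ran in Python 3.11.15 with numpy 2.4.6, pandas 2.3.3, scipy 1.17.1 and matplotlib 3.10.9, and read recovery, calls and intervals were tested on simulated data. Promoter windows come from RefSeq (GRCh38.p14), where G6PC is listed as G6PC1 and SLC16A1, SLC2A3, PFKFB2 and PCK1 were not matched.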

Additional observations from a re-analysis of the deposited data

Results flagged for a closer look

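The melatonin over DMSO log2 fold change of PFKFB3 went from -1.32 at 24 h to 0.48 at 48 h, and that of PFKFB4 from -1.23 to 0.23. They are pointed out because the direction turned between the times, with counting intervals away from a ratio of 1 at both. The change at 48 h minus that at 24 h was 1.801 for PFKFB3 and 1.460 for PFKFB4. With 1 library per condition this difference was not tested. At 48 h the levels rest on 107 and 205 reads for PFKFB3 and on 135 and 183 reads for PFKFB4.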

How the results depend on the processing

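No paired analysis was possible because each condition was 1 library. The counts of members past 2-fold moved by more than 1.5 times under the following settings. At a pseudocount of 0.1, melatonin against DMSO gave 5 members at 24 h and 1 at 48 h, against 8.89% and 12.1% of all genes. At a 1.5-fold threshold it gave 13 and 5, against 11.6% and 18.7%, and 48 h over 24 h with melatonin gave 16, against 12.8%. For 48 h over 24 h with DMSO, TPM gave 9 of 38 members compared, against 20.3%. For 48 h over 24 h with melatonin, at least 5 FPKM, centring on the median and a library size as the sum of reads, the last chosen after seeing the data, gave 2 each, against 2.17%, 4.14% and 4.03%. The other alternatives for these counts stayed within 1.5 times, and no member past 2-fold changed direction. The median log2 fold change of the members kept its sign under each alternative but division by a reference gene, between -0.45 and -0.13 for melatonin over DMSO at 24 h, -0.19 and -0.07 at 48 h, -1.24 and -0.45 for 48 h over 24 h with DMSO, and -0.67 and -0.33 with melatonin. TPM moved the median of all genes to 0.17 for melatonin over DMSO at 24 h, to 0.46 for 48 h over 24 h with DMSO and to 0.23 with melatonin. Relative to all genes, the members' median under TPM was -0.30, -0.13, -0.91 and -0.57 in the 4 comparisons, beside -0.31, -0.12, -0.87 and -0.46 on deposited FPKM. Adding pseudogene reads moved no isozyme share by more than 0.01 percentage points. Depth limits LDHB, PDK4 and FBP1, which had at most 10 reads in any library.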

Other observations

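The members' median depends on which reference gene divides it. For melatonin over DMSO at 24 h, the median log2 fold change of the 36 members was -0.00153 divided by GAPDH, and between -0.74 and 0.19 divided by the 11 other reference genes, above 0 for TFRC alone. Divided by GAPDH, the median was -0.05 for 48 h over 24 h with DMSO and 0.23 with melatonin. Divided in turn by each of the 11 other reference genes, it lay between -1.32 and -0.35 with DMSO and between -0.86 and -0.19 with melatonin, so GAPDH was the only one of the 12 under which the second median was above 0. For melatonin over DMSO at 48 h, the median was 0.06 divided by GAPDH and 0.33 divided by TFRC, and below 0 for the other 10.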
